A study of Homo sapiens with 22 samples.

Results

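The levels of 10 noncoding RNA genes were followed in human fibroblasts during reprogramming to pluripotency. The genes were listed by symbol and were selected on their measured levels by day, so those levels are given as a description, with no test. They are 10 of the 33694 genes in the files: RP11-148B6.1, PCAT14, LINC01405, LINC01220, RP11-568A7.4, RP11-598D14.1, DANT1, BCYRN1, MALAT1 and NEAT1. All 10 passed the detection filter of 5% of cells. By Ensembl identifier, 9 of them are typed as long noncoding RNA (lncRNA) in gencode v44, among 715 such genes that passed the same filter. The remaining gene, BCYRN1, is typed there as a small cytoplasmic RNA, which goes against its description as a long noncoding RNA.

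The cells were BJ fibroblasts, an established line from human foreskin, grown in microfluidic channels. They received non-modified messenger RNAs for POU5F1, SOX2, KLF4, MYC, LIN28 and NANOG by daily transfection on days 1 to 8. Cells were taken before transfection (D0, the control) and on D3, D5, D7, D9, D11, D13 and D15, so all later groups share the same 6 transfected factors, and from D9 on the cells were in another medium without transfection. Each day has 2 pools (A and B) of cells from 4 chips each, and 6 of the 16 pools were captured as 2 frozen aliquots, which gave 22 single-cell libraries. D0 is one line without a mock-transfected group, so transfection, medium and time in the channel cannot be told apart in the changes from D0. All groups are one fibroblast line, and the pools are separate sets of chips of that line.

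A total of 41975 cells were kept of 44197 barcodes. The median count per cell was 23717 to 88662 unique molecular identifiers (UMIs, each standing for 1 captured RNA molecule) over the 22 libraries. Libraries shared at most 1.63% of the barcodes of the smaller one. The summed level of 7 fibroblast markers, such as the collagen genes COL1A1 and COL3A1, was 4012 and 4156 counts per 1000000 UMIs (CPM) on D0 and 890 and 1058 CPM on D15. The summed level of 6 pluripotency markers was 3.73 and 3.84 CPM on D0 and 2811 and 3052 CPM on D15. Of the markers of other cells, the keratinocyte genes KRT14 and KRT5 summed to no more than 0.143 CPM in any pool, the blood genes PTPRC and HBB to no more than 2.05 CPM, and the trophoblast genes CGA and GATA3 to no more than 7.46 CPM. The 6 markers of early mesoderm and endoderm summed to at most 14.02 CPM up to D9 and to 86.5 to 193 CPM from D11 to D15.

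Long noncoding RNAs are transcripts without a known protein product. Some stay in the nucleus, such as MALAT1, which is found in speckles, and NEAT1, which organises paraspeckles. Others are precursors that are cut into small RNAs. Many are restricted to one cell type, and pluripotent stem cells express a set of them that fibroblasts lack. The assay used here captures the polyadenylated end of an RNA, so it counts host transcripts and not the mature microRNAs made from them.

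RP11-148B6.1 is annotated as MIR302CHG, the host gene of the miR-302/367 cluster, on chromosome 4, GRCh38 chr4:112646476-112650051, minus strand. It holds the hairpins of MIR302B, MIR302C, MIR302A, MIR302D and MIR367 in that order along the transcript. This microRNA cluster is a well known mark of human pluripotent stem cells. The mature 3p sequences of RefSeq are shown because the shared seed (bases 2 to 8, in capitals) defines what the cluster can target: 4 of the 5 have the seed AAGUGCU, and miR-367-3p has AUUGCAC.
hsa-miR-302b-3p: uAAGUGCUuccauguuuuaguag
hsa-miR-302c-3p: uAAGUGCUuccauguuucagugg
hsa-miR-302a-3p: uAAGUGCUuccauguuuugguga
hsa-miR-302d-3p: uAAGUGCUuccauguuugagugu
hsa-miR-367-3p: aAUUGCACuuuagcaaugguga

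The promoter of MIR302CHG (chr4:112650002-112650301, minus strand, 250 bases before to 50 bases after the RefSeq start, GRCh38) is shown because the host gene has the earliest rise among the genes absent from fibroblasts. The letters ATGCAAAT, the octamer recognised by POU factors such as POU5F1, were searched on both strands and are in capitals. They occur at 202 bases before the start, and 1.77% of 35116 RefSeq promoters of this length hold them. The letters CATTGT, a single form of the core recognised by SOX factors, are not in this window, and 10.8% of the promoters hold them. Other forms of the SOX core were not searched. A second RefSeq start of MIR302CHG and the entries for LINC01220, RP11-568A7.4, DANT1 and MALAT1 held neither set of letters. PCAT14, LINC01405, RP11-598D14.1, BCYRN1 and NEAT1 were not searched. The letters were matched by sequence alone.
MIR302CHG promoter: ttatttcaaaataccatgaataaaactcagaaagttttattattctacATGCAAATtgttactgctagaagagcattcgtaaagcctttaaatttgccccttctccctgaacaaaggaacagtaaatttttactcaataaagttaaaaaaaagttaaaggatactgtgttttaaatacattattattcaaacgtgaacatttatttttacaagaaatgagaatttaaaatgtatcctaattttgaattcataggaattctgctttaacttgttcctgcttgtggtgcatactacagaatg

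BCYRN1 (chr2:47335315-47335514, plus strand, GRCh38) is the gene of brain cytoplasmic RNA, a short transcript of RNA polymerase III that regulates translation in neurons and is also found in tumour and dividing cells. The authors counted on a ready-made hg38 index with protein-coding, linc and antisense genes. The bounds of BCYRN1 in that index are not given in the sources used here, so which reads were counted is uncertain.

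RP11-148B6.1 was near 0 in fibroblasts and was present from D3, the first day sampled after transfection began. Its level was 0.0420 and 0.0204 CPM in the D0 pools A and B, from 7 and 3 UMIs. It was 62.0 and 89.9 CPM on D3 and 248 and 372 CPM on D5. On D7 it reached 514 CPM in pool A and 167 CPM in pool B. After transfection it was 464 and 535 CPM on D9, 669 and 505 CPM on D11, 492 and 1367 CPM on D13, and 1208 and 648 CPM on D15. Each pool from D3 on was above both D0 pools. D7 overlapped with D5, D9 and D11, D5 lay below D9 and D11, and the pools of D13 differed by more than the means of neighbouring days.

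In sums over a pool, fewer cells with an RNA and less of it per cell cannot be told apart. The share of cells in which RP11-148B6.1 was seen followed the same course. To compare cells of unequal depth, each was thinned at random to 5000 UMIs. In the D3 pools 14.8% and 20.5% of thinned cells held at least 1 UMI, in the D9 pools 58.8% and 67.2%, and in the D15 pools 91.4% and 86.9%. In D0 pool A, where the gene should be absent, the share was 0.0326%, at a median of 23717 UMIs per cell before thinning against 57141 in D15 pool A.

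**Figure D1:**
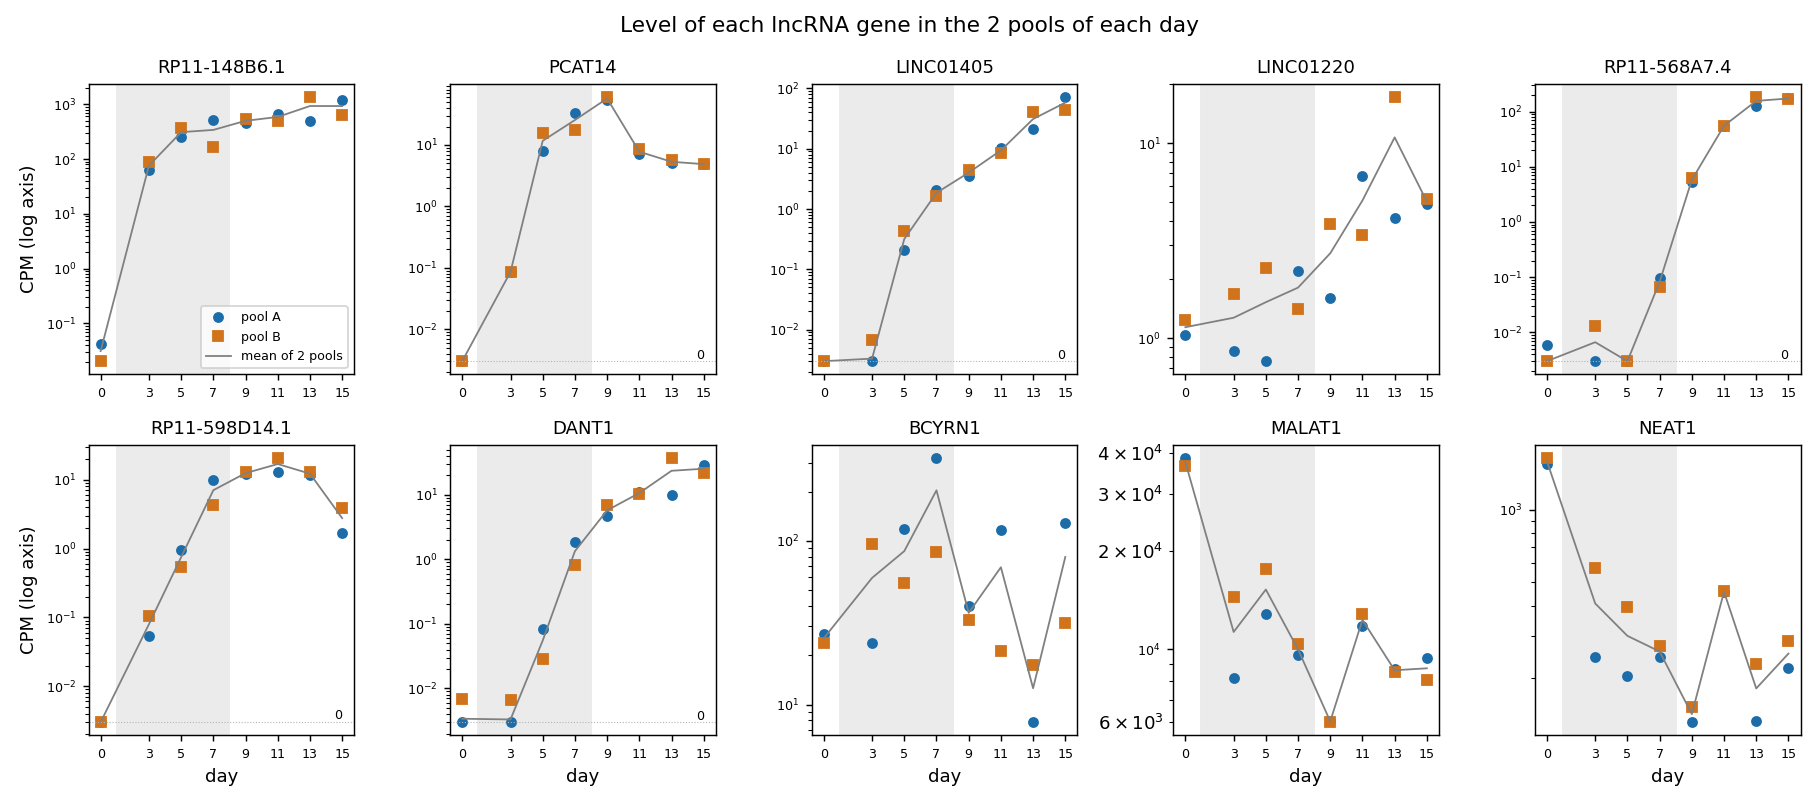
CPM of the 10 genes by day on a log axis, with pool A as circles, pool B as squares and the mean of both as a line; grey marks the transfection days and the dotted line stands for 0 UMIs. RP11-148B6.1 is at 62.0 CPM or more in every pool from D3 on, whereas MALAT1 and NEAT1 are highest in both D0 pools.

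PCAT14, first described as a prostate cancer associated transcript (chr22:23536881-23547797, plus strand), rose and fell within the time course. It had 0 UMIs in either D0 pool and 0.0852 and 0.0861 CPM on D3. Its level was 7.90 and 15.5 CPM on D5 and 33.4 and 17.7 CPM on D7. On D9 it stood at 53.7 and 60.9 CPM. It was 7.02 and 8.53 CPM on D11, 5.05 and 5.61 CPM on D13, and 4.91 and 4.84 CPM on D15. The D9 pools lay above all others, and their mean was at least 5992-fold higher than D0, with D0 taken at 3 UMIs over both pools together. Thinned cells with a UMI were 16.1% and 21.5% on D9 and 2.91% and 3.02% on D11.

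RP11-598D14.1 (chr4:175457726-175473197, minus strand, without a name in gencode v44) also passed through a maximum, later and broader than that of PCAT14. It had 0 UMIs on D0 and 0.0533 and 0.106 CPM on D3. The level reached 9.79 and 4.30 CPM on D7, 11.9 and 13.01 CPM on D9, 13.05 and 20.7 CPM on D11, and 11.7 and 12.7 CPM on D13. On D15 it was 1.66 and 3.87 CPM, below both pools of each day from D7 to D13. The highest share of thinned cells with a UMI was 4.45%, in D11 pool B.

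RP11-568A7.4, annotated as HPAT5, a transcript known from human pluripotent cells (chr6:167228200-167237517, plus strand), appeared after transfection had ended. It was at 0.0981 CPM or less in all 8 pools of D0 to D7, with 1 UMI in the D0 pools together. It was 5.32 and 6.28 CPM on D9, 55.5 and 55.5 CPM on D11, 128 and 186 CPM on D13, and 175 and 172 CPM on D15. The pools of D9, D11 and D13 did not overlap, and those of D15 lay inside the range of D13. Thinned cells with a UMI went from 2.07% and 2.00% on D9 to 50.6% and 49.1% on D15.

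LINC01405 and DANT1 climbed over the same days with no fall at the end. LINC01405, a gene near the heart myosin gene MYL2 (chr12:110934590-110959093, plus strand), had 0 UMIs on D0. It was 2.05 and 1.66 CPM on D7, 3.59 and 4.43 CPM on D9, 10.2 and 8.62 CPM on D11, 21.0 and 41.1 CPM on D13, and 72.4 and 43.8 CPM on D15. No neighbouring days from D7 to D15 overlapped for LINC01405. Thinned cells with a LINC01405 UMI were 27.8% and 18.5% on D15.

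DANT1 is one of the transcripts of the macrosatellite DXZ4 on chromosome X (chrX:115840899-115908066, plus strand). It had 1 UMI in the D0 pools together and was 1.86 and 0.819 CPM on D7, 4.63 and 6.83 CPM on D9, and 10.96 and 10.3 CPM on D11. It was 9.78 and 37.2 CPM on D13 and 28.7 and 21.9 CPM on D15, so the wide range of D13 overlapped with D11 and with D15, while both D15 pools lay above those of D11. LINC01220 (chr14:75294404-75298109, plus strand), for which no role is described here, was present in fibroblasts at 1.03 and 1.24 CPM. It stayed between 0.762 and 3.85 CPM up to D9, and was 6.77 and 3.39 CPM on D11, 4.13 and 17.3 CPM on D13, and 4.88 and 5.15 CPM on D15. D13 pool B alone held the highest level of LINC01220, and no pool had more than 5.51% of thinned cells with a UMI.

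**Figure D2:**
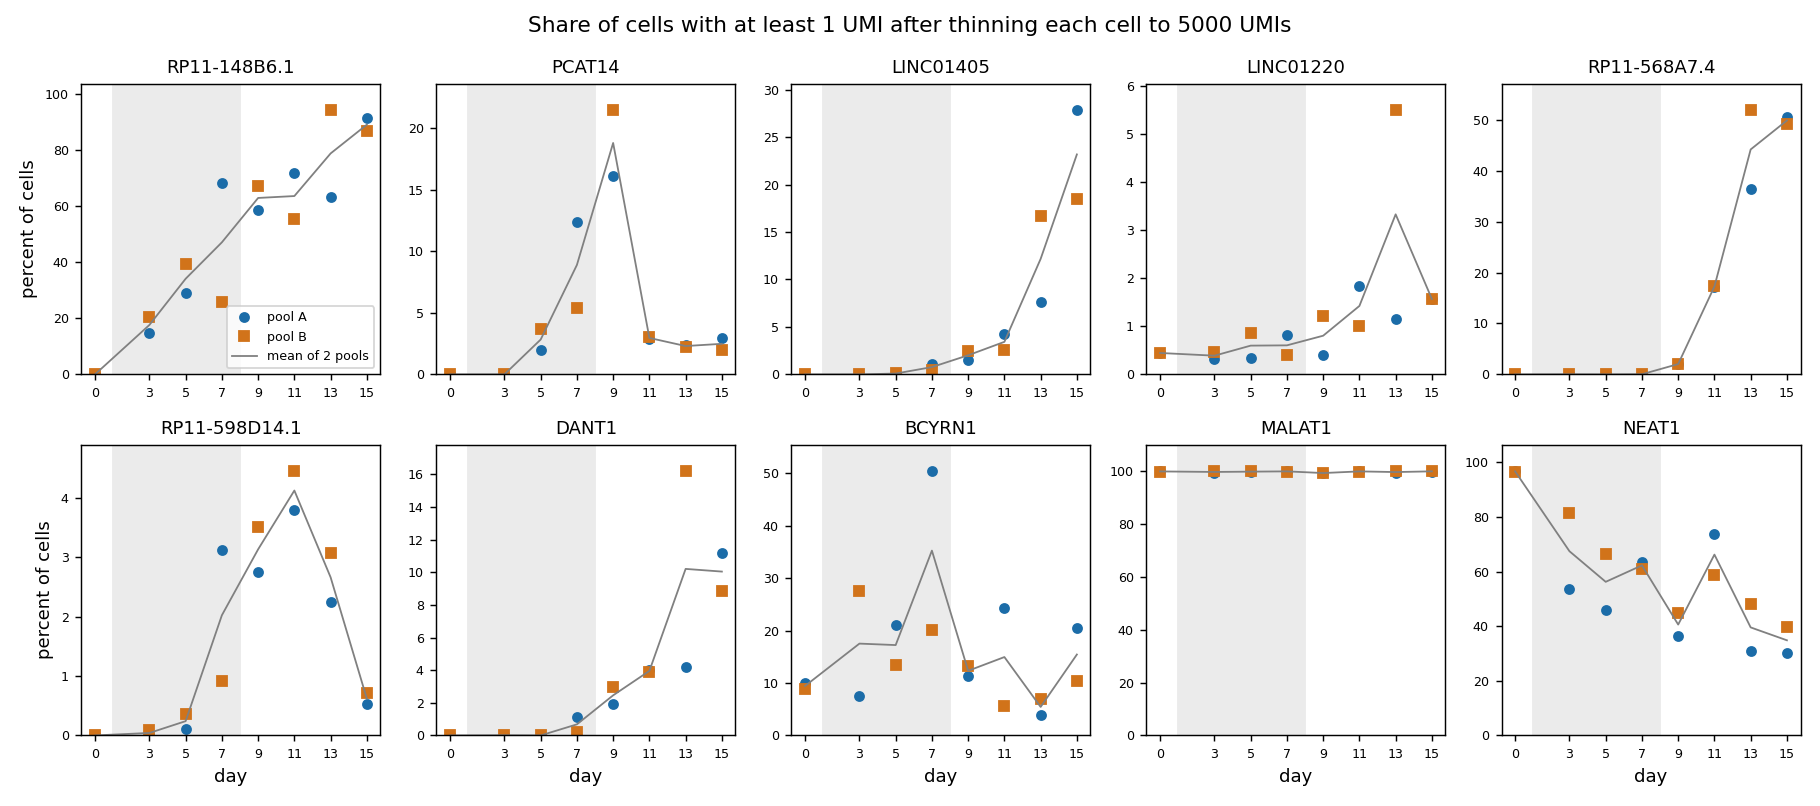
Percent of cells with at least 1 UMI of each gene after thinning to 5000 UMIs, by day, with pool A as circles, pool B as squares and their mean as a line. RP11-148B6.1 reaches 94.4% of cells in D13 pool B, RP11-568A7.4 51.9% in the same pool, and PCAT14 21.5% in D9 pool B.

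MALAT1 and NEAT1, the nuclear RNAs, had their highest levels in untransfected fibroblasts. MALAT1 (chr11:65497640-65508073, plus strand) was 38705 and 36500 CPM in the D0 pools. It was 8180 and 14448 CPM on D3, 12834 and 17701 CPM on D5, 9635 and 10375 CPM in the D7 pools, and 6052 and 5980 CPM on D9. From D11 to D15 it lay between 8075 and 12861 CPM. Both D0 pools were above every later pool, and the D9 pools were the lowest of all. In the fit over all 16 pools the log2 fold change of D3 against D0 was -1.75 and that of D15 against D0 was -2.17, given as a description.

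MALAT1 alone made up 3.87% and 3.65% of all UMIs on D0 and 0.605% and 0.598% on D9. All lncRNA genes together made up 4.78% and 4.60% on D0 and 1.26% and 1.29% on D9. Without MALAT1 the lncRNA share was 0.913% and 0.947% on D0, 0.659% and 0.692% on D9, and 0.990% and 0.884% on D15. These are shares of captured RNA, in which fewer molecules of one RNA and more of all others cannot be told apart.

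NEAT1, the gene of the paraspeckle RNA (chr11:65422774-65445540, plus strand), was 1545 and 1645 CPM on D0. The counts do not tell apart its 9 transcripts annotated in gencode v44, and which of them the assay captured was not tested. They therefore cannot be read as levels of the paraspeckle scaffold. It was 244 and 574 CPM on D3, 205 and 395 CPM on D5, 245 and 272 CPM in the D7 pools, and 131 and 153 CPM on D9. It was 457 and 459 CPM on D11, 133 and 230 CPM on D13, and 221 and 286 CPM on D15. D0 lay above all other days, D9 and D13 overlapped at the low end, and both D11 pools lay above those of D7, D9, D13 and D15. Thinned cells with a NEAT1 UMI were 96.8% and 96.6% on D0 and 30.1% and 39.6% on D15.

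BCYRN1 had no steady course. Its level was 27.1 and 23.8 CPM on D0, 23.7 and 95.1 CPM on D3, 118 and 55.4 CPM on D5, and in the D7 pools 321 and 85.9 CPM. It was 39.8 and 32.8 CPM on D9, 117 and 21.1 CPM on D11, 7.80 and 17.4 CPM on D13, and 128 and 31.6 CPM on D15. The pools of D3, D7, D11 and D15 lay far apart, and D7 against D9, D11 against D13 and D13 against D15 were the neighbouring days that did not overlap.

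The 6 pools captured as 2 aliquots give the spread between libraries of the same cells. For BCYRN1 the aliquots held 76.1 and 275 CPM in D5 pool A, 146 and 23.5 CPM in D5 pool B, and 197 and 54.5 CPM in D7 pool B. They held 182 and 22.4 CPM in D9 pool A, 48.8 and 19.9 CPM in D9 pool B, and 81.4 and 11.3 CPM in D11 pool B. With 1 CPM added, aliquots differed 2.38-fold to 7.81-fold for BCYRN1, while the median gene at 5 CPM or more differed 1.11-fold to 1.32-fold in the same pools. In 5 of the 6 pools the BCYRN1 ratio was larger than that of 99% of 9481 genes. For BCYRN1 a change by day cannot be told apart from the difference between libraries.

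Aliquots also differed for other genes of the list. RP11-148B6.1 was 761 and 235 CPM in the aliquots of D5 pool B and 969 and 402 CPM in those of D9 pool A. PCAT14 was 40.0 and 6.89 CPM in D5 pool B, and NEAT1 was 130 and 492 CPM in D5 pool A. The aliquots with the higher BCYRN1 level had the higher median UMI count per cell in 5 of 6 pools, and D9 pool B was the exception. The aliquot with more BCYRN1 also had the higher median mitochondrial share in each of the 6 pools. The gap was widest in D5 pool A (4.40% against 2.25%) and smallest in D5 pool B (3.67% against 3.65%), and D9 pool B had 3.96% against 2.98%. The part of depth, mitochondrial share or handling in these differences was not tested.

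**Figure D3:**
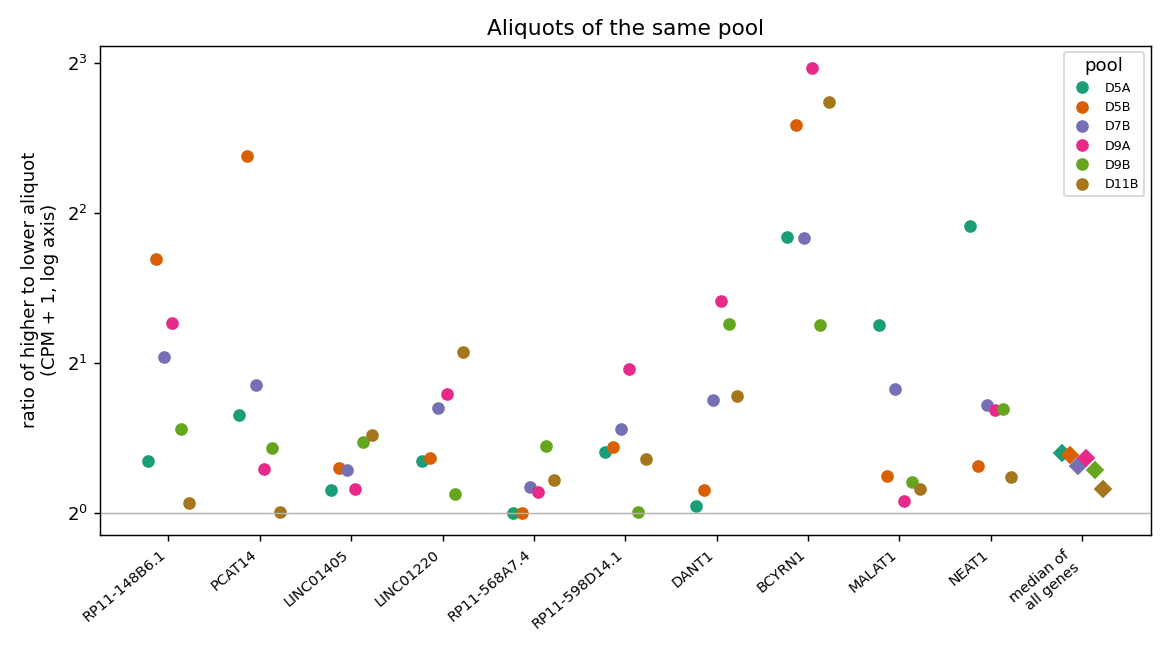
Ratio of the higher to the lower aliquot of a pool, on CPM + 1 and a log axis, for each gene in the 6 pools with 2 libraries, with the median over all genes at 5 CPM or more at the right. BCYRN1 lies between 2.38 and 7.81, above the medians of 1.11 to 1.32.

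Beyond the listed genes, the 715 lncRNA genes tested, which include 9 of the 10, changed by day in both directions. A gene was called where edgeR's quasi-likelihood test, with Benjamini-Hochberg adjustment over all genes tested, gave a p under 0.01 and the log2 fold change was over 0.25 in size. From D0 to D3, 57 lncRNA genes were called higher (7.97%) and 140 lower (19.6%), beside 13.1% higher and 12.6% lower of all 12794 genes. From D7 to D9, where transfection ended, 43 were called higher (6.01%) and 31 lower (4.34%), beside 4.59% and 2.78% of all genes. From D9 to D15, 107 were called higher (15.0%) and 90 lower (12.6%), beside 10.8% and 10.2% of all genes. With only the 4 pools compared in the edgeR fit, the D3 counts were 0 and 0, with an unadjusted p under 0.05 for 325 of 709 lncRNA genes. DESeq2 was not run on those 4 pools alone. The counts also rested on single pools: without D0 pool A the D3 counts were 27 and 70, without D9 pool B the D9 counts were 26 and 1, and without D9 pool A the D15 counts were 39 and 43.

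Cells of one pool were then compared with each other. The first comparison asked in which cells of D11, D13 and D15 the RNAs were found. After thinning, cells with more UMIs of 6 pluripotency markers (L1TD1, TDGF1, DPPA4, EPCAM, CDH1 and POU5F1) than of 7 somatic markers (COL1A1, COL1A2, COL3A1, LUM, DCN, POSTN and THY1) formed the P class, and cells with more somatic UMIs formed the S class. The raw UMIs of each class were added per pool and tested with the pool as a block, over 6 pools. Of the 10 genes, 6 were called higher in the P class and 2 lower, beside 35.5% higher and 32.7% lower of 12781 genes. P and S class cells numbered 1466 and 1413 in D11 pool A and 1825 and 1425 in D11 pool B. They numbered 504 and 63 in D15 pool A and 1822 and 271 in D15 pool B. The make-up of the pools thus changed by day, so the direction of these calls is not independent of the choice of the genes by day.

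The 6 genes higher in the P class were higher in each of the 6 pools. RP11-148B6.1 ranged from 664 to 1573 CPM in P class cells and from 44.8 to 447 CPM in S class cells (log2 difference 3.08 ± 0.33 SE, adjusted p = 6.1e-05, edgeR). RP11-568A7.4 ranged from 81.2 to 215 CPM against 2.48 to 58.3 CPM (3.61 ± 0.54, adjusted p = 0.00037). For both genes the highest S class level was in D13 pool B, and the lowest P class level lay above it.

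DANT1 ranged from 13.4 to 43.3 CPM in the P class and from 0.708 to 10.6 CPM in the S class (2.96 ± 0.30, adjusted p = 4.6e-05). LINC01405 ranged from 12.6 to 79.1 CPM against 1.05 to 13.3 CPM (2.71 ± 0.27, adjusted p = 4.9e-05). PCAT14 ranged from 4.99 to 12.7 CPM against 0.668 to 2.87 CPM (2.29 ± 0.44, adjusted p = 0.0015), on days when its level was past its maximum. LINC01220 had the smallest of the 6 differences (1.71 ± 0.23, adjusted p = 0.00022), with 4.39 to 19.3 CPM against 0.897 to 9.15 CPM.

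MALAT1 and NEAT1 were lower in the P class in all 6 pools. MALAT1 ranged from 4321 to 7408 CPM in P class cells and from 20263 to 30289 CPM in S class cells, with no overlap (log2 difference -1.98 ± 0.08, adjusted p = 1.1e-05, edgeR). NEAT1 ranged from 26.4 to 203 CPM against 412 to 1895 CPM (-3.45 ± 0.36, adjusted p = 5.7e-05). S class cells held 867 and 1101 CPM of NEAT1 on D11, 412 and 815 CPM on D13, and 1785 and 1895 CPM on D15, against 1545 and 1645 CPM in all cells of D0.

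BCYRN1 and RP11-598D14.1 were not called. BCYRN1 was nearly equal in both classes of a pool whatever the level of the pool: 129 CPM in the P class and 126 CPM in the S class of D15 pool A, and 7.59 and 8.41 CPM in those of D13 pool A. Its log2 difference was -0.05 ± 0.07 (adjusted p = 0.51). RP11-598D14.1 had a log2 difference of -0.20 ± 0.78 (adjusted p = 0.83). It was higher in the P class in both pools of D11 and lower in both pools of D13.

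**Figure D4:**
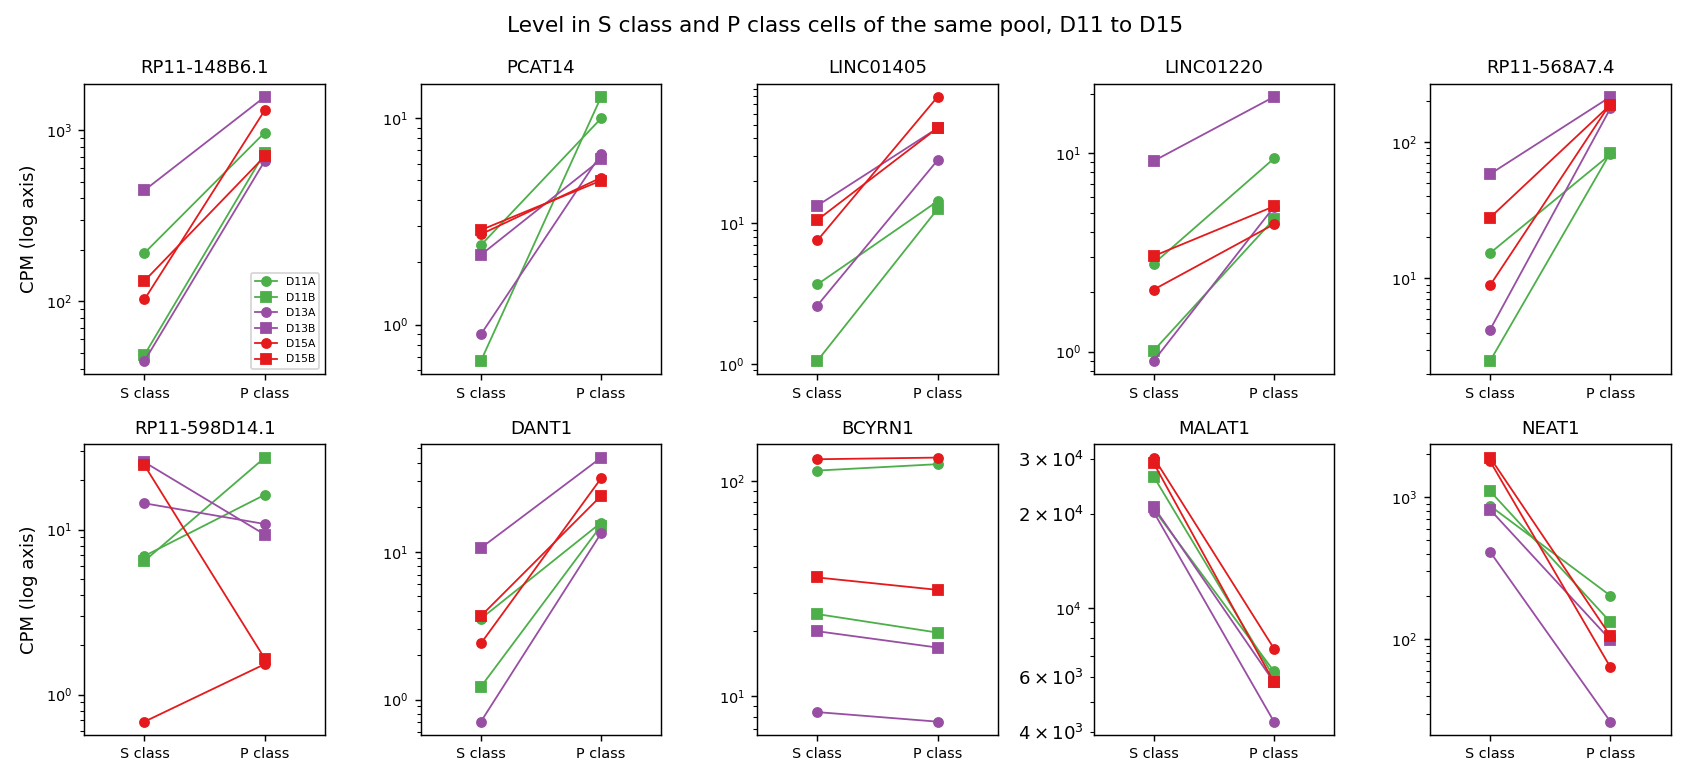
CPM in S class and P class cells of the same pool on a log axis, with 1 line per pool, colours for D11, D13 and D15, circles for pool A and squares for pool B. Lines of 6 genes rise and those of MALAT1 and NEAT1 fall in every pool, the BCYRN1 lines are nearly flat at levels from 7.59 to 129 CPM, and the RP11-598D14.1 lines cross.

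The part of cells with mesoderm and endoderm markers in these pools was not tested. P class cells had more UMIs than S class cells in 6 of 6 pools, 1.24 to 1.57 times at the median. Of 14332 cells of these days, 171 had equal marker counts and were left out, 548 lay within 1 UMI of the cut, and 6823 held at least 3 UMIs of both marker lists. Leaving the latter out kept the calls of the 8 genes. In S class cells 12.8% to 80.4% held an RP11-148B6.1 UMI after thinning, and the part of free RNA or of cells between the classes in that share was not tested.

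The second comparison set dividing cells, with at least 3 UMIs of 14 mitosis markers such as MKI67 and TOP2A after thinning, against cells with none, over 15 pools. Dividing cells had 0.945 to 1.70 times the UMIs of the others at the median, and more in 15 of all 16 pools, and the part of depth was not tested. Of the 10 genes, 5 were called higher in dividing cells and 2 lower, beside 26.8% higher and 29.6% lower of 12780 genes. MALAT1 (log2 difference -1.66 ± 0.11, adjusted p = 2e-09, edgeR) and NEAT1 (-2.06 ± 0.21, adjusted p = 1.9e-07) were lower in dividing cells in all 15 pools.

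Dividing fibroblasts of D0 already differed in this way. MALAT1 was 25854 and 23821 CPM in dividing cells of the D0 pools and 45290 and 42841 CPM in the others. NEAT1 was 1023 and 1057 CPM against 1769 and 1902 CPM. BCYRN1 was 33.7 and 27.7 CPM against 24.5 and 22.4 CPM. All 3 genes passed the test on D0 alone, with log2 differences of -0.91, -0.91 and 0.30, and the classes did not overlap.

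On the later days the classes differed in division: 87.3% to 94.8% of P class cells were dividing, and 19.7% to 48.8% of S class cells. Within each class of D9 to D15 MALAT1 was again called lower in dividing cells, by a smaller difference (-0.84 over 3 pools of P class cells and -1.16 over 7 pools of S class cells), and so was NEAT1 (-1.90 and -1.17). The P class cells without mitosis markers in those 3 pools were only 22, 25 and 22 cells. RP11-148B6.1 was higher in dividing cells in the fit over 15 pools (1.29 ± 0.28, adjusted p = 0.00056), and in 12 of them taken singly. It was 1.07 higher on the log2 scale within S class cells, which passed the test, and 0.13 higher within P class cells, which did not.

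Of the other genes called higher, RP11-568A7.4 (3.16 ± 0.42, adjusted p = 1.8e-05) kept its call within P class cells at 2.42 and lost it within S class cells at 0.43. RP11-568A7.4 had at most 13 UMIs in a class of any D0 to D7 pool, so its result rests on the later pools. DANT1 (2.49 ± 0.27, adjusted p = 1.7e-06) kept its call within S class cells at 0.83 and lost it within P class cells at 0.86. LINC01405 (1.89 ± 0.26, adjusted p = 1.4e-05) lost it in both, at 0.89 in S class and -0.16 in P class cells. BCYRN1 (0.66 ± 0.15, adjusted p = 0.0011) was higher in dividing cells in 13 of 15 pools, all but D11 pool B and D15 pool B. On D11 to D15 alone it was not called. Within the classes it was 0.61 and -0.09 without passing. PCAT14, LINC01220 and RP11-598D14.1 had log2 differences of 0.97, 1.01 and 1.49 that did not pass, with adjusted p from 0.011 to 0.025. Within S class cells PCAT14 (0.93) and RP11-598D14.1 (2.33) passed and LINC01220 (0.81) did not, and within P class cells none of these 3 passed.

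The third comparison concerned the transfection days. Cells of D3, D5 and D7 with a count of AES, a gene of a transcriptional corepressor, above the median of their pool were compared with the rest over 6 pools. AES was chosen because its counts went with those of a transfected factor across cells in earlier results of these data. Its relation to the transfected factors was not tested here. Of the 10 genes, 3 were called higher in AES-high cells and 2 lower, beside 22.6% higher and 23.2% lower of 12793 genes. Some of the 10 had almost no counts here. RP11-568A7.4 had at most 14 UMIs in any of these pools, and LINC01405 and DANT1 had at most 1 UMI in a D3 pool. Their lack of a call therefore says little. RP11-148B6.1 ranged from 79.6 to 583 CPM in AES-high cells and from 39.9 to 434 CPM in AES-low cells and was higher in 6 of 6 pools (log2 difference 1.14 ± 0.16, adjusted p = 0.00015, edgeR).

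BCYRN1 was higher in AES-high cells by 1.04 ± 0.08 (adjusted p = 4.5e-06), in 6 of 6 pools, and by 1.05 with the median and the block taken per library. PCAT14 was higher by 0.82 ± 0.17 (adjusted p = 0.0016), in 5 of 6 pools, and its D3 pools held only 8 and 13 UMIs. Without D7 pool B the adjusted p of PCAT14 was 0.011, and it was at most 0.0091 in the other alternatives. MALAT1 (-0.95 ± 0.05, adjusted p = 1.9e-06) and NEAT1 (-0.55 ± 0.05, adjusted p = 1.5e-05) were lower in AES-high cells in 6 of 6 pools. AES-high cells had 1.20 to 1.52 times the UMIs of AES-low cells at the median, in all 6 pools, and the part of depth in these differences was not tested.

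**Figure D5:**
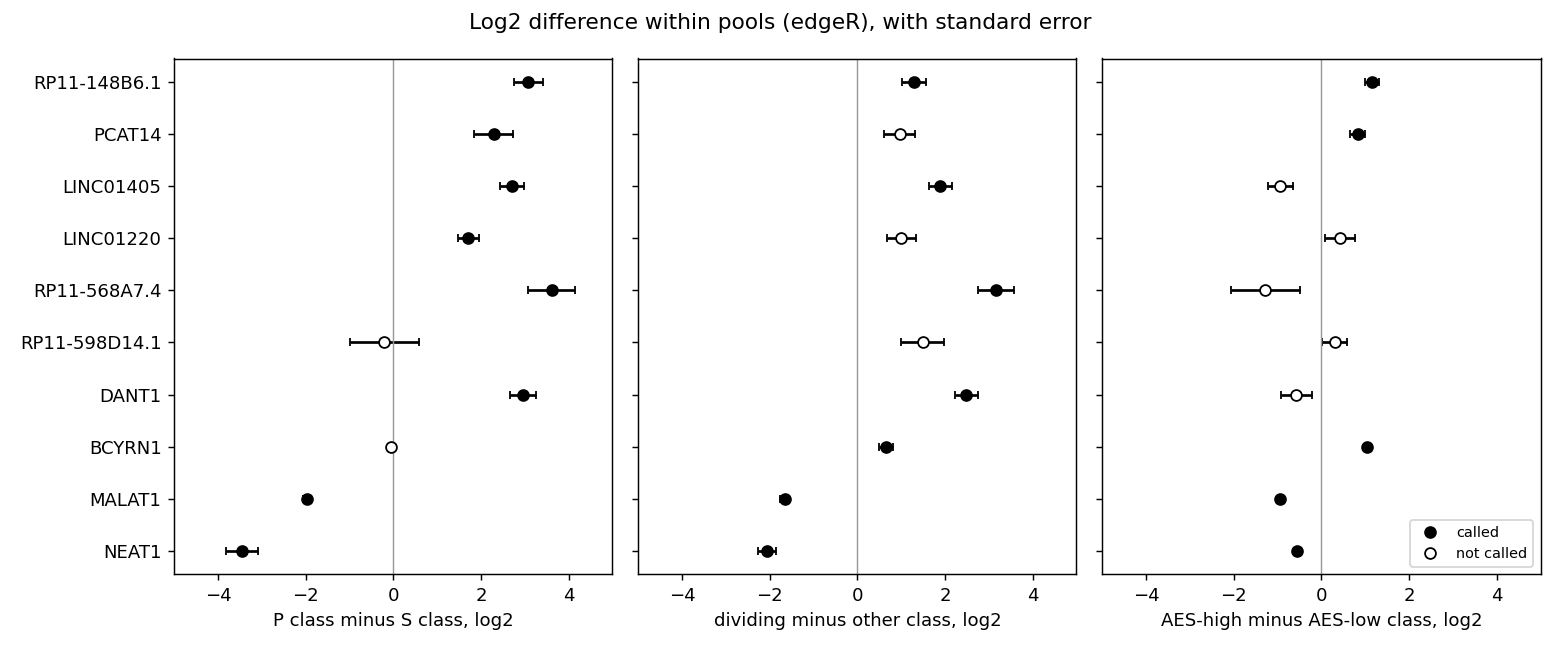
Log2 difference of each gene within pools with its standard error, for P against S class cells, dividing against other cells and AES-high against AES-low cells, with filled points for genes called. MALAT1 and NEAT1 are lower in all 3 comparisons, RP11-148B6.1 is higher in all 3, and BCYRN1 is at -0.05 in the first and at 1.04 in the third.

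Other lncRNAs were taken from lists drawn up by function with earlier results of these data known, so their counts are a description. Of 10 further pluripotency-linked lncRNAs tested, all 10 were called higher in the P class, which is itself set by pluripotency markers, beside 35.5% of all genes (median log2 difference 2.78, against 0.05 over all genes), led by RP11-1144P22.1 at 3.82 ± 0.42 and LINC-ROR, a transcript named for its role in reprogramming, at 3.42 ± 0.48. By day, 8 of the 10 were called higher on D9 than on D7, beside 4.59% of all genes, among them LINC01356 (3.87 ± 0.36) and LINC01108 (2.55 ± 0.36). From D0 to D3, 2 were called higher and 1 lower, beside 13.1% and 12.6% of all genes, namely RP11-148B6.2 (6.51 ± 0.84), LINC00678 (5.16 ± 0.56) and LINC00545 (-3.11 ± 0.31). RP11-148B6.2 lies on the same strand of chromosome 4 as RP11-148B6.1 and was also higher in AES-high cells, at 2.12 ± 0.23. In that comparison 2 of the 10 were called higher and 2 lower, beside 22.6% and 23.2% of all genes. The lower ones were TUNAR (-0.98 ± 0.21) and LINC01356 (-0.85 ± 0.22).

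Of 11 fibroblast and HOX lncRNAs tested, 8 were called lower in the P class and 1 higher, beside 32.7% and 35.5% of all genes (median -2.51). The largest differences were those of CARMN, a smooth muscle transcript, at -4.45 ± 0.44 and of HOTAIR, from the HOXC cluster, at -4.39 ± 0.32, and PVT1 was the gene called higher, at 0.44 ± 0.10. From D9 to D15, 7 of the 11 were called lower, beside 10.2% of all genes, with FENDRR at -4.32 ± 0.82 and HOTAIRM1 at -2.91 ± 0.23. From D0 to D3, 5 of the 11 were called lower and 0 higher, beside 12.6% and 13.1% of all genes, among them MEG3 at -1.95 ± 0.26. In AES-high cells 7 were called lower and 2 higher, beside 23.2% and 22.6% of all genes. MEG3 was among the lower ones at -1.28 ± 0.06, and the higher ones were HOTAIRM1 at 0.53 ± 0.056 and PVT1 at 0.51 ± 0.055.

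Of 8 host transcripts of small nucleolar RNAs tested, 5 were called higher in the P class, beside 35.5% of all genes (median 0.44), such as EPB41L4A-AS1 at 1.06 ± 0.09. In AES-high cells 6 were called higher, beside 22.6% of all genes (median 0.42), such as SNHG15 at 0.63 ± 0.08. Of 7 widely expressed lncRNAs, 2 were called lower in the P class, beside 32.7% of all genes, KCNQ1OT1 at -1.44 ± 0.11 and TP53TG1 at -1.29 ± 0.14, and JPX was higher at 0.55 ± 0.05. In dividing cells 5 of these 7 were called lower, beside 29.6% of all genes, again with KCNQ1OT1 as the largest at -1.32 ± 0.10.

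Among all 715 lncRNA genes, 218 were called higher in the P class (30.5%) and 240 lower (33.6%), beside 35.5% and 32.7% of 12781 genes. By size of the difference RP11-568A7.4 ranked 6 and RP11-148B6.1 ranked 15 of the 218, and NEAT1 ranked 41 of the 240. The largest differences at 5 CPM or more were those of RP11-132A1.3 and FOXD3-AS1, both at 3.86, of RP11-1144P22.1, of RP11-562F9.2 at 3.80 and of RP11-267L5.1 at 3.65. FOXD3-AS1, beside the gene of the stem cell factor FOXD3, was 351 ± 96.7 CPM in P class and 30.1 ± 23.2 CPM in S class cells (SD, n = 6). At the other end were LINC01013 at -5.34, AC112715.2 at -5.13, DNM3OS at -4.88, LINC01615 at -4.85 and RP11-400N13.3 at -4.84, where DNM3OS was 1.86 ± 1.72 CPM in P class and 48.4 ± 24.1 CPM in S class cells.

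Genes annotated within 20 kb were examined because reads of neighbours can be confused. RP11-148B6.1 lies within LARP7 on the opposite strand. LARP7, which binds the 7SK RNA, was between 45.3 and 75.7 CPM in all 16 pools, with a log2 difference of 0.47 ± 0.10 in the P class and 0.38 ± 0.07 in dividing cells, both called higher (r = 0.83 with RP11-148B6.1 over 16 pools). ZGRF1, 9481 bases away on the same strand as RP11-148B6.1, was between 1.05 and 7.78 CPM and was higher in the P class at 1.73 ± 0.12 and in dividing cells at 2.15 ± 0.21 (r = 0.78 with RP11-148B6.1 over 16 pools). NEAT1 has a pseudogene, CMB9-22P13.1, 9729 bases away on the same strand. It was between 1.56 and 36.2 CPM and was also lower in the P class, at -3.05 ± 0.21 (r = 0.85 with NEAT1 over 16 pools). CMB9-22P13.1 was lower in dividing cells too, at -1.45 ± 0.23, and in AES-high cells, at -0.56 ± 0.096. FRMD8, on the other side of NEAT1, was likewise called lower in the P class, at -1.62 ± 0.25. It was not called in dividing or AES-high cells (r = -0.22 with NEAT1). Whether reads of these genes were confused was not tested. FOS, an immediate early gene 12174 bases from LINC01220, was lower in the P class at -0.93 ± 0.14, opposite to LINC01220.

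BCYRN1 lies 9644 bases before EPCAM, an epithelial adhesion gene, on the same strand. EPCAM was between 0.907 and 266 CPM and was one of the markers of the P class, and its course was unlike that of BCYRN1 (Pearson's r = -0.19 of log2(CPM + 1) over 16 pools). BCYRN1 also lies within AC073283.4 on the opposite strand, which was between 0.453 and 3.12 CPM and was lower in dividing cells, at -0.57 ± 0.17. RP11-568A7.4, DANT1, LINC01405 and MALAT1 overlap genes on the opposite strand, none of which was above 2.59 CPM in any pool.

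The genes whose course over the 16 pools was most like that of each listed gene were found among 9396 genes with a mean of 5 CPM or more, by Pearson's r of log2(CPM + 1). The pools share their days, so a high r is common and is given as a description. RP11-148B6.1 was most like LIN28A (r = 0.99), whose messenger RNA was among those transfected, and AKAP7 (0.98). LIN28A also differed between aliquots, by 3.39 in D9 pool A and 1.98 in D7 pool B on the log2(CPM + 1) scale, and in 5 of 6 pools the aliquot with more LIN28A had more RP11-148B6.1. This was not particular to RP11-148B6.1, since PCAT14, BCYRN1, MALAT1 and NEAT1 went the same way as LIN28A in each of these pools. RP11-568A7.4 was most like CRYGD and PDZD4 (both 0.996), DANT1 like HHLA1 (0.99) and LINC01224 (0.99), and LINC01405 like KDR (0.99) and IDO1 (0.99).

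PCAT14 was most like GLIPR1L1 (0.95) and GSTP1 (0.94), RP11-598D14.1 like ENC1 (0.96) and TGFB2 (0.95), and LINC01220 like HSBP1 (0.95) and TOMM7 (0.91). MALAT1 was most like ANKRD28 (0.95) and LRP1 (0.94), and NEAT1 like CREBRF (0.96) and MAST4 (0.95). BCYRN1 had the weakest likeness, to RPL36A (0.84) and BOLA2B (0.82). Among the listed genes, MALAT1 and NEAT1 had r = 0.93 with each other, LINC01405, DANT1 and RP11-568A7.4 had r from 0.96 to 0.98, and BCYRN1 had r between -0.32 and 0.28 with each of the others.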

How the data were processed

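The deposited files hold raw UMI counts per gene and cell, one matrix per library, which the authors made from 10x Genomics 3' libraries with Cell Ranger 2.2 (per the submitters' processing notes) on GRCh38 and did not normalize. Barcodes under 1000 genes or over 10% mitochondrial UMIs were left out. Aliquots were added per pool, and CPM are per 1000000 UMIs of a pool, library or class. Genes in at least 5% of cells were tested with edgeR 4.0.16 (TMM, quasi-likelihood test, Benjamini-Hochberg adjustment) in R 4.3.3, with day as the factor or pool as a block, and DESeq2 1.42.0 as the alternative. Classes with fewer than 20 cells in a pool were left out, which removed D15 pool A from the comparison of dividing cells. Doublets were not called. The fits were tested on simulated data. Python 3.11.15 with pandas 2.3.3 and matplotlib 3.10.9 was used for tables and plots.

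The 10 genes and the lists were chosen with earlier results of these data known. The genes named are the 10 listed, those within 20 kb, the 2 with the highest r to each, the 2 largest called per list, comparison and direction (of which examples are given), and the 5 largest lncRNA differences per direction between P and S class cells at 5 CPM or more. Names and positions come from gencode v44 by Ensembl identifier (32807 of 33694 matched). Pool letters were not taken to pair pools across days: their differences correlated from -0.40 to 0.81 (median -0.02) over 28 pairs of days. In some pairs of days the pool differences thus went together, and the source of this was not tested. The fits by day treat the 16 pools as independent. Each pool joins independent chips, but whether pools A and B were started from separate cultures is not given for each pool in the sources used here. The p-values thus measure the spread between pools. Standard errors were derived from the log2 difference and its F statistic, so they rest on the same spread. SDs are over pools, and floors cover counting error only. The sequence of BCYRN1 is not reported here.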

Additional observations from a re-analysis of the deposited data

Results flagged for a closer look

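RP11-598D14.1 differed between days in where it was found. On D11 both pools had the higher level in P class cells (log2 ratios of 1.18 and 2.00), and on D13 both had the higher level in S class cells (-0.40 and -1.41). The means of the days differed by 2.49 on the log2 scale, and this difference was not tested. On D15 the pools went apart, at 0.78 in pool A, where the S class held 2 UMIs, and -3.54 in pool B.

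PCAT14 was lower in dividing cells of D5 (log2 ratios of -0.79 and -1.21) and higher in those of D11 (2.09 and 2.82), a difference of 3.46 that was not tested. It was higher in dividing cells in both pools on 4 of the 5 days with enough counts, and D5 was the exception. LINC01220 was lower in dividing cells of D0 (-0.12 and -0.34) and higher in those of D13 (1.74 and 2.32), a difference of 2.26 that was not tested. It was higher in both pools on 4 of 7 days and lower in both on 1. These ratios have 0.5 CPM added, and pools with fewer than 30 UMIs of the gene in both classes together were left out.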

How the results depend on the processing

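In the comparison of P and S class cells, the 6 genes called higher and the 2 called lower kept their direction under all 14 alternatives, and only LINC01220 lost its call, with no replicate block (log2 difference 1.402, adjusted p = 0.049, against 3.5e-10 to 0.049 over its alternatives). The log2 difference of RP11-598D14.1, which was not called, changed sign without D13 pool B (0.17) or D15 pool B (0.48; -0.80 to 0.48 when leaving out each pool), with libraries as the block (0.33), with classes apart by 3 UMIs (0.018), without cells of both lists (0.075) and with D9 added (0.64), and that of BCYRN1 with D9 added (0.037) and with no replicate block (0.071). In dividing cells, sign changes were those of RP11-148B6.1 (-1.42) and LINC01220 (-0.44) on D0 alone, of PCAT14 (-0.96) and RP11-568A7.4 (-0.24) on D0 to D5, and of PCAT14 (-0.45), LINC01405 (-0.16), RP11-598D14.1 (-1.56) and BCYRN1 (-0.087) within P class cells. RP11-148B6.1 had at most 4 UMIs in a class of a D0 pool. RP11-568A7.4 had at most 1 UMI in a class of a D0 to D5 pool. The signs of both in these fits rest on almost no counts. DANT1 changed sign in the AES comparison with DESeq2 (0.087). The causes were not tested. The fits on D0 alone, on D0 to D5, within each class and with libraries as the block were chosen after seeing the data.

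The number of listed genes called higher in dividing cells was 8 with DESeq2 and 1 on D0 alone, on D0 to D5 and within P class cells (3 pools), and 5 to 6 when leaving out a pool. The share of all genes called was not counted in the alternative fits, so whether these numbers differ from that share cannot be read from them. PCAT14 passed without either D5 pool, and BCYRN1 lost its call on D11 to D15 alone (0.04). In the AES comparison 2 to 3 were called higher and 2 to 3 lower when leaving out a pool, and the changes came from D7 pool B for PCAT14 and D5 pool B for LINC01405.

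Counts of lncRNA genes depended more on the setting. Without the detection filter, which adds genes, higher and lower calls were 223 and 353 on D3, 176 and 96 on D9, 439 and 311 on D15, 712 and 809 in the P class, 452 and 549 in dividing cells, and 253 and 407 in AES-high cells. With only the 4 pools compared, the counts were 0 and 0 on D3, 20 lower on D9 and 198 higher on D15, and DESeq2 gave 67 and 74 on D9. Dividing cells gave 73 higher on D0 to D5, 8 and 5 within P class cells and 65 and 106 within S class cells. Leaving out a pool gave 27 to 50 higher and 70 to 125 lower on D3, 22 to 38 and 1 to 32 on D9, and 39 to 63 and 33 to 54 on D15. The pools that moved a count by over 1.5 times were D0 A and B and D3 A for D3, D7 B and D9 A and B for D9, and all 4 for D15. With the pool letter as a replicate block the counts were 57 and 148, 42 and 35, and 114 and 92. Shares of cells mostly fell with thinning to 2000 UMIs and rose without thinning, as for RP11-148B6.1 on D15 (72.2% and 98.9%, against 89.2%). Some did not fall, as for RP11-598D14.1 in D5 pool A, seen in 2 cells at 5000 UMIs and in 3 at 2000.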
